A study of Tursiops truncatus with 17 samples.

Results

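Transcripts of the nuclear genes for oxidative phosphorylation subunits were followed in messenger RNA sequenced from the cerebral cortex of 17 bottlenose dolphins (Tursiops truncatus). The genes were chosen by name alone, as protein-coding entries whose symbols belong to the NDUFA, NDUFB, NDUFC, NDUFS, NDUFV, SDH, UQCR, COX4 to COX8 or ATP5 series, without the NDUFAF assembly factors. The rule took 72 of the 21265 genes in the files, namely 34 of complex I, 4 of complex II, 5 of complex III, 14 of complex IV and 15 of complex V. They carry 71 names, since NDUFA2 has 2 entries. Dolphins of the bloom group (9 animals) came from a bloom season and dolphins of the non-bloom group (8 animals) from a non-bloom season. Both groups are labelled wild type, and both are frozen archived necropsy tissue, with 1 library per dolphin. No age, sex, date or sequencing batch is given in the labels, and any batch that ran with season cannot be told apart from season. The numbers given to dolphins follow deposition order.

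Oxidative phosphorylation is the last step of aerobic energy production. Complex I (NADH dehydrogenase) and complex II (succinate dehydrogenase) take electrons from NADH and succinate, complex III passes them to cytochrome c, and complex IV (cytochrome c oxidase) hands them to oxygen, while complexes I, III and IV pump protons that drive ATP synthase, complex V. A few subunits of complexes I, III, IV and V are encoded in the mitochondrial genome and all others, the genes described here, in the nucleus. Neurons draw most of their ATP from this system, and many of the accessory nuclear subunits do not themselves carry electrons but hold the complexes together.

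Depth per library was 7680050 to 12572653 reads in the bloom group and 12346713 to 15635292 in the non-bloom group, and the values given are CPM, that is reads divided by a library size that the authors scaled (called normalised values). Bloom libraries 5, 6 and 9 stood apart. Mitochondrial transcripts took 57.0%, 33.5% and 77.2% of their reads, against 1.47% to 19.5% in the other 6 bloom libraries and 9.68% to 22.1% in the non-bloom libraries. They left 4039857, 6719605 and 1753299 reads from nuclear genes in bloom 5, 6 and 9, so 1 read in bloom 9 was worth a normalised value of 0.571. Estimates without these 3 libraries are given beside the leading results. Neuronal markers were present in every library, but they do not tell cortex from other neural tissue. Their summed normalised value over 11 genes was 2326 to 9757 in the bloom group and 7711 to 12907 in the non-bloom group. Bloom 5 (2326) and bloom 6 (3401) were the lowest, while bloom 9 was at 7710. Summed oligodendrocyte markers were 18080, 19137 and 14110 in bloom 5, 6 and 9. They were 4407 to 8691 in the other 6 bloom libraries and 1682 to 8018 in the non-bloom group.

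No nuclear subunit gene passed the test between seasons. Of the 70 members that could be tested, 0 reached an adjusted p under 0.05 in limma, against 9.16% of the 13548 genes tested (1241 genes, 606 higher and 635 lower in bloom). At an unadjusted p under 0.05 there were 12 members higher and 3 lower in bloom, together 21.4% of the members, against 35.4% of all genes tested (16.4% higher and 19.1% lower). edgeR on the recovered reads called 1 member against 8.29% of genes, and DESeq2 called 9 against 23.4%. limma with library quality weights called 5 against 29.8% of genes, and relative log expression scaling and scaling without mitochondrial transcripts called 1 each, against 9.81% and 9.77%. In 0 members did the bloom and non-bloom values not overlap, in either direction; over all genes tested, 0.502% lay wholly higher and 0.155% wholly lower in bloom. The 2 members left untested were COX8C, an isoform known mainly from testis, with 0 reads in all 17 libraries, and the second NDUFA2 entry, with 1 read in bloom 7 and 0 in the others.

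The estimated differences leaned upward in the bloom group without passing the test. The log2 change (bloom minus non-bloom, on the scale log2(value + 1)) was positive in 51 members and negative in 19, with a median of 0.25, while 49.7% of all genes tested were positive and their median was -0.0034. Without bloom 5, 6 and 9 the members split into 43 positive and 27 negative with a median of 0.026, and 0 passed (2.47% of all genes did). Unadjusted p-values under 0.05 in that fit belonged to 1 member higher in bloom (ATP5SL, which encodes no subunit) and 2 members lower, against 22.7% of all genes (11.7% higher and 11% lower). Both other scalings of all 17 libraries left the split at 51 or 52 positive. Without non-bloom 7 alone the split was 48 to 22 with a median of 0.17. Without all 4 of these libraries it turned to 29 positive and 41 negative with a median of -0.047, and again 0 passed (1.77% of all genes did).

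**Figure D1:**
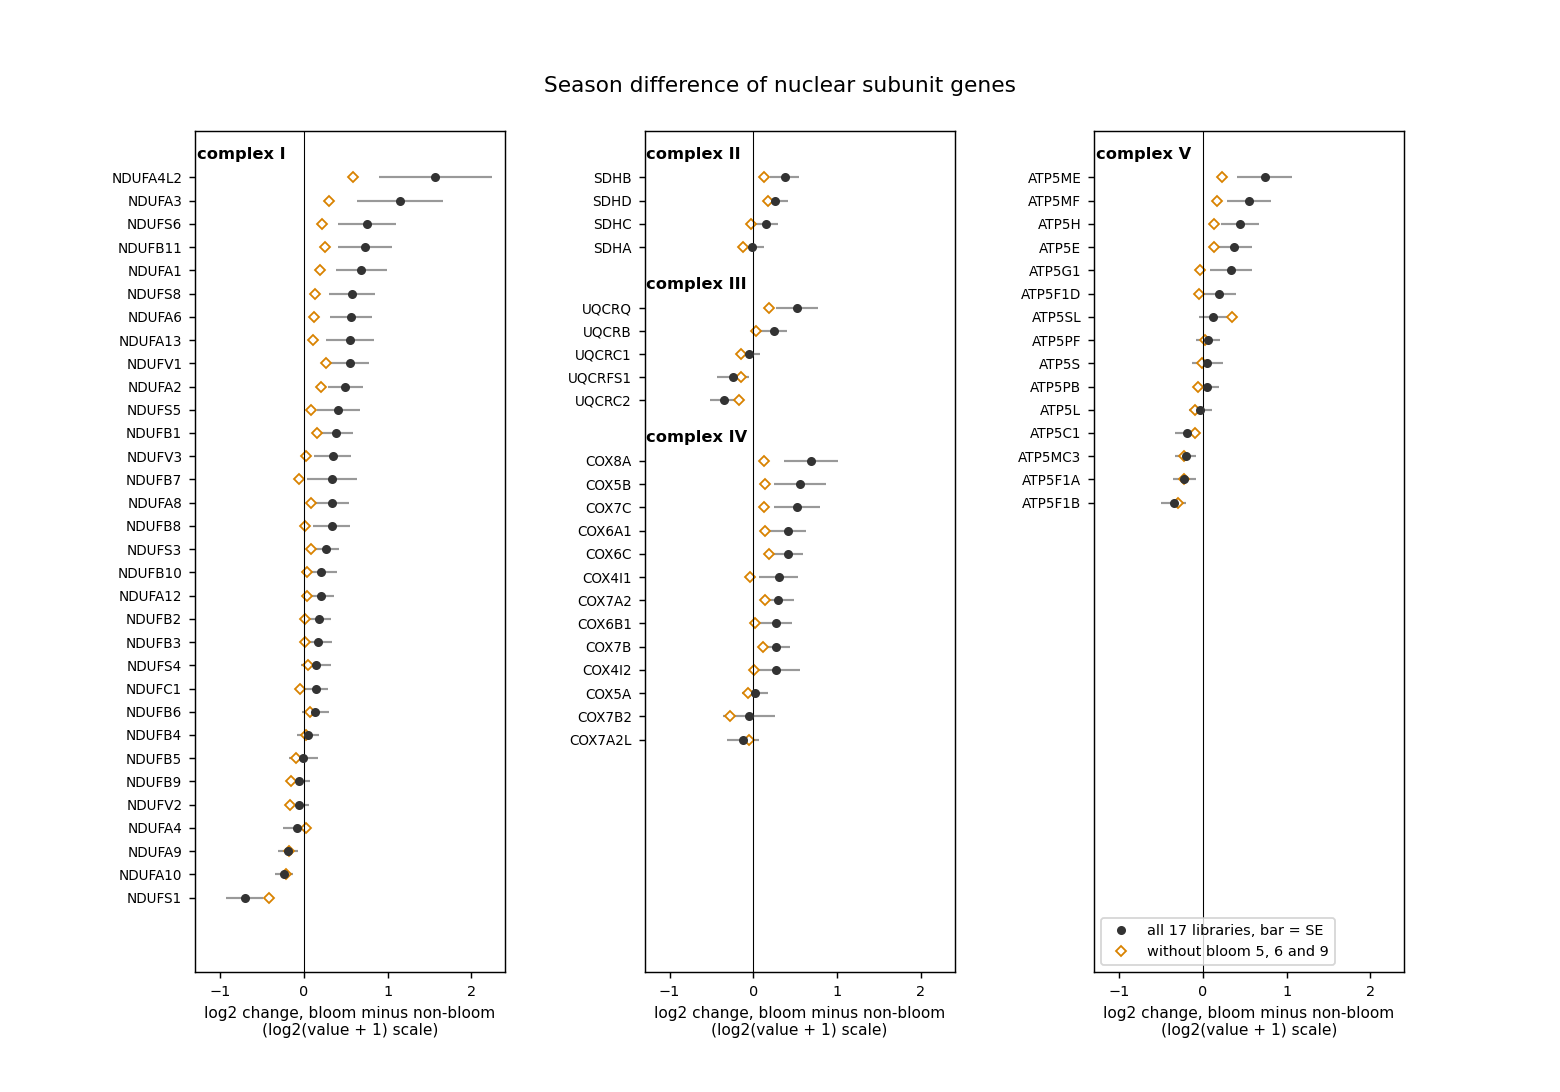
The log2 change of the tested members (bloom minus non-bloom, x axis), by complex, with 1 member not shown; filled points with bars are the estimate and its SE over all 17 libraries, and open diamonds are the estimate without bloom 5, 6 and 9. The 51 positive estimates include nearly all of complex IV, and most of the diamonds lie closer to 0 than the filled points.

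Within some libraries most subunit genes were high or low together. Bloom 9 held the highest of the 17 values in 39 of the 70 members, against 20.5% of all genes tested. Non-bloom 7 held the lowest in 54 of the 70 (77.1%), against 11.5% of all genes. Bloom 5, 6 and 9 were each above every non-bloom library in 32 members (45.7%, against 15.0% of all genes) and each below every non-bloom library in 1, NDUFS1 (1.43%, against 20.2% of all genes). The median member, measured as log2 distance from its non-bloom mean, stood at 0.45 in bloom 5, 0.49 in bloom 6 and 0.81 in bloom 9, and at -0.22 to 0.19 in the other 6 bloom libraries. In the non-bloom group it was -0.55 in non-bloom 7, -0.27 in non-bloom 8 and at most 0.31, in non-bloom 4. Neuronal marker level (7711, the lowest of the non-bloom group) was also low in non-bloom 7. It was 2326 in bloom 5, 3401 in bloom 6 and 7710 in bloom 9, where the median member was high. The part of neuronal marker level in the low subunit values of non-bloom 7 was not tested. In such bulk tissue, fewer cells of a type and less RNA per cell cannot be told apart.

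**Figure D2:**
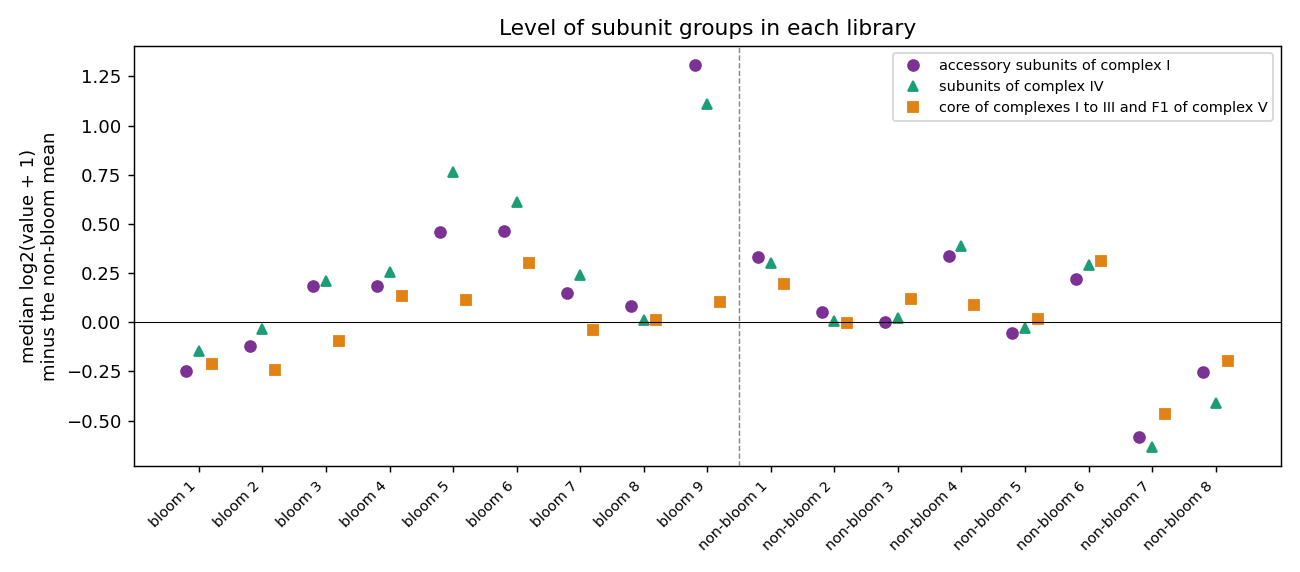
Median level of 3 sets of subunit genes in each library, as log2(value + 1) minus the non-bloom mean (y axis), with bloom libraries left of the dashed line; circles are accessory subunits of complex I, triangles are complex IV and squares are the core of complexes I to III with the F1 part of complex V. Bloom 9 stands at 1.31 for accessory subunits of complex I and 1.11 for complex IV but at 0.10 for the core set, and non-bloom 7 is low in all 3 sets.

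The median spread of the members between dolphins was below that of all genes in the bloom group and above it in the non-bloom group. The median SD of log2 values over the 70 members was 0.42 in the bloom group, 0.21 in that group without bloom 5, 6 and 9, and 0.34 in the non-bloom group. Over all genes tested these medians were 0.50, 0.29 and 0.29.

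Among the core subunits of complex I, 3 estimates were positive and 3 negative. NDUFS1, the largest iron-sulphur protein of the arm that takes electrons from NADH, came closest to the threshold of any member. Its lowest, median and highest normalised values were 50.3, 116 and 196 in the bloom group and 127, 179 and 275 in the non-bloom group. Of the 9 bloom libraries, 6 were below every non-bloom library, with bloom 9 (50.3) and bloom 5 (69.7) lowest, and the groups overlapped through bloom 1, 2 and 4. Its log2 change was -0.71 (SE 0.22), with an adjusted p of 0.0522 in limma. It passed when bloom 1, 4 or 8 was left out, and with relative log expression scaling, scaling without mitochondrial transcripts, library quality weights and DESeq2. Over the 28 alternatives the adjusted p ran from 0.00838 to 0.455, and without bloom 5, 6 and 9 the log2 change was -0.42 with an adjusted p of 0.156.

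Of the partners of NDUFS1 in the electron input arm, NDUFV1 had a positive and NDUFV2 a negative estimate. NDUFV1, the flavoprotein that oxidises NADH, had 164, 214 and 525 (lowest, median and highest) in the bloom group and 83.4, 175 and 246 in the non-bloom group. The highest value was bloom 9 and the lowest non-bloom 7, and 3 bloom libraries (5, 6 and 9) lay above all non-bloom ones. The log2 change was 0.55 (SE 0.23, adjusted p 0.0973 in limma), and 0.27 without bloom 5, 6 and 9. NDUFV2, which carries an iron-sulphur cluster beside NDUFV1, averaged 133 ± 18.5 in the bloom group and 140 ± 24.1 in the non-bloom group (SD, n = 9 and 8), a log2 change of -0.062.

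Of the 3 core subunits that lead to the quinone, 0 passed. NDUFS8, an iron-sulphur protein, averaged 216 ± 158 in the bloom group and 127 ± 30.0 in the non-bloom group (SD, n = 9 and 8), where bloom 9 alone was at 612 and the other bloom libraries at 107 to 261. The log2 change of NDUFS8 was 0.57 (SE 0.28), and 0.13 without bloom 5, 6 and 9. NDUFS3 averaged 117 ± 24.5 in bloom and 98.2 ± 20.8 in non-bloom cortex (log2 change 0.26, and 0.090 without bloom 5, 6 and 9). NDUFV1 and NDUFS8 lie on the same scaffold of the deposited gene models.

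Accessory subunits of complex I mostly had positive estimates. Of 25 tested, 21 had a positive and 4 a negative log2 change, with a median of 0.34, and 0 passed. Without bloom 5, 6 and 9 the median was 0.038, and without non-bloom 7 as well the split was 9 positive to 16 negative. NDUFA3, a small membrane subunit, had lowest, median and highest values of 10.8, 27.1 and 435 in the bloom group and 9.87, 14.9 and 24.0 in the non-bloom group. Bloom 9 (435), 5 (72.3) and 6 (50.9) were far above the rest and 5 of the 9 bloom libraries exceeded all non-bloom ones. The log2 change was 1.15 (SE 0.51, adjusted p 0.122 in limma) and 0.30 without those 3 libraries. NDUFA3 was the member that edgeR called (log2 change 2.20, Benjamini-Hochberg adjusted p 0.0457), and DESeq2 and the library quality weights called it too.

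Further accessory subunits were likewise highest in bloom 9. NDUFA2 (the entry with reads) had 25.1, 36.1 and 75.4 in the bloom group and 16.5, 28.8 and 40.7 in the non-bloom group, a log2 change of 0.49 (SE 0.21, adjusted p 0.106 in limma) and of 0.20 without bloom 5, 6 and 9. NDUFB11 had 17.2, 24.0 and 146 in the bloom group and 11.1, 18.3 and 26.9 in the non-bloom group, a log2 change of 0.73. NDUFA1 (log2 change 0.68) and NDUFA6 (log2 change 0.56) each had 5 bloom libraries above all non-bloom ones. DESeq2 called NDUFA1, NDUFA6 and NDUFB11, with Benjamini-Hochberg adjusted p of 0.0312, 0.0432 and 0.0278. Without bloom 5, 6 and 9, limma put their log2 changes at 0.19, 0.12 and 0.25, with adjusted p of 0.554, 0.652 and 0.393.

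Some accessory subunits of complex I pointed the other way. NDUFA10 had 101, 120 and 150 in the bloom group and 121, 143 and 165 in the non-bloom group, and 5 bloom libraries were below every non-bloom one. For NDUFA10 the log2 change was -0.24 (SE 0.11, adjusted p 0.129 in limma) and -0.21 without bloom 5, 6 and 9; with library quality weights its adjusted p was 0.0379. NDUFA9, NDUFB9 and NDUFB5 were the other 3 accessory subunits with negative estimates.

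**Figure D3:**
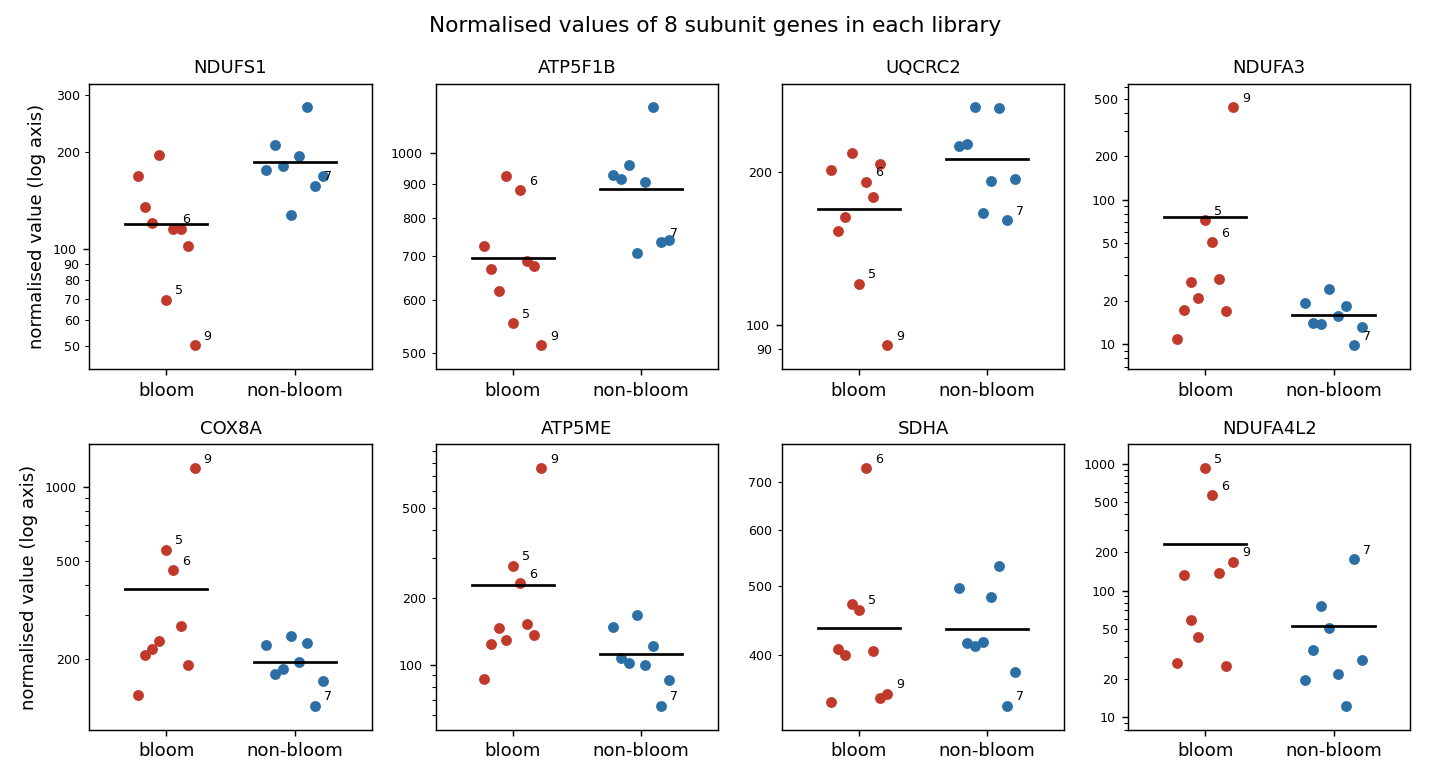
Normalised values of 8 subunit genes in every library (y axis, log scale), bloom in red at the left of each panel and non-bloom in blue; bars are group means, and bloom libraries 5, 6 and 9 and non-bloom library 7 are numbered. Bloom 9 is lowest in NDUFS1, ATP5F1B and UQCRC2 and highest in NDUFA3, COX8A and ATP5ME, and bloom 6 is highest in SDHA.

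NDUFA4 and its paralog NDUFA4L2 were named for complex I, but NDUFA4 is now regarded as a subunit of complex IV. NDUFA4L2 is known from human and mouse cells as a gene induced in low oxygen, and in mouse brain as a marker of pericytes. It had the widest spread on the log2 scale of any tested member in both groups. Lowest, median and highest values were 25.1, 133 and 925 in the bloom group, with bloom 5 (925) and 6 (564) highest, and 12.3, 31.2 and 176 in the non-bloom group, with non-bloom 7 highest. Of the 9 bloom libraries 7 lay within the non-bloom range, whose top is non-bloom 7 alone (the next non-bloom value was 75.2). The log2 change was 1.57 (SE 0.68, adjusted p 0.111 in limma), and 0.58 without bloom 5, 6 and 9. DESeq2 called it, with a Benjamini-Hochberg adjusted p of 0.0212. With the neuronal marker level as a covariate, the log2 change was 0.087 with an adjusted p of 0.940 in limma. NDUFA4 averaged 57.6 ± 10.4 in bloom and 62.2 ± 15.3 in non-bloom cortex (log2 change -0.086).

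The balance within paralog pairs was compared per dolphin. The log2 ratio of NDUFA4L2 to NDUFA4 averaged 0.97 ± 2.00 in the bloom group and -0.68 ± 1.48 in the non-bloom group (SD, n = 9 and 8), a difference of 1.66 with a two-sided exact permutation p of 0.0754 (0.151 after Benjamini-Hochberg adjustment over the 2 pairs). Without non-bloom 7 the difference was 2.08 with an adjusted exact permutation p of 0.0477, and without bloom 5, 6 and 9 it was 0.56 with an adjusted exact permutation p of 0.885. The log2 ratio of COX4I2 to COX4I1 averaged -7.33 ± 0.98 in the bloom group and -7.29 ± 0.63 in the non-bloom group, a difference of -0.033 (exact permutation p = 0.938, also after adjustment). COX4I2, a paralog known from lung and from pericytes of mouse brain, was sparse, with 2 reads in bloom 9. COX6A2, COX6B2 and COX7A1 were not analysed here.

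Markers of pericytes and smooth muscle also had positive estimates. All 10 had positive log2 changes (median 0.85), against 49.7% of all genes tested. Of the 10, 1 passed, against 9.16% of all genes tested. This was the potassium channel gene KCNJ8, which rose in bloom (log2 change 0.91, SE 0.23, adjusted p 0.0344 in limma). Its call was lost in 9 of the 17 fits without 1 library. The summed normalised value of these markers was 59.9 to 269 in the bloom group and 24.3 to 247 in the non-bloom group. Non-bloom 7 was highest of its group in this sum (247) and in NDUFA4L2 (176). In the bloom group the sum was highest in bloom 2 (269, with NDUFA4L2 at 133). It was 214 in bloom 1, where NDUFA4L2 was 26.8, and 207 in bloom 5, where NDUFA4L2 was 925. Summed endothelial markers were highest in bloom 6 (2450) and bloom 5 (2240), against 271 to 817 in the non-bloom group. They were 194 in bloom 8, where NDUFA4L2 was 25.1, and 173 in bloom 9, where NDUFA4L2 was 169. The part of either marker set in the values of NDUFA4L2 was not tested.

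Complex II, which is wholly nuclear and also an enzyme of the tricarboxylic acid cycle, showed 3 positive estimates and 1 negative, with a median log2 change of 0.21. SDHA, the flavoprotein that oxidises succinate, had lowest, median and highest values of 344, 406 and 733 in the bloom group. In the non-bloom group they were 340, 417 and 535, and bloom 6 alone was above the non-bloom range. The log2 change of SDHA was -0.021 (SE 0.15). SDHB, the iron-sulphur subunit, had 90.4, 120 and 217 in bloom and 77.1, 108 and 123 in non-bloom cortex, with 4 bloom libraries above all non-bloom ones. SDHB had a log2 change of 0.37 (SE 0.17, adjusted p 0.128 in limma), and 0.12 without bloom 5, 6 and 9. The membrane anchors were SDHC (39.5 ± 9.08 in bloom, 34.8 ± 3.67 in non-bloom) and SDHD (46.7 ± 12.0 in bloom, 38.5 ± 7.92 in non-bloom). Their log2 changes were 0.15 and 0.26, and -0.026 and 0.17 without bloom 5, 6 and 9.

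In complex III the 3 core genes that the naming rule took (UQCRC1, UQCRC2 and UQCRFS1) had negative estimates. These stayed negative without bloom 5, 6 and 9 and without non-bloom 7 as well. CYC1 (cytochrome c1), also of the complex III core, falls outside the rule. It was counted with the electron carriers, where it did not pass. UQCRC2, a core protein, had 91.4, 178 and 218 (lowest, median and highest) in the bloom group and 161, 209 and 268 in the non-bloom group, with 3 bloom libraries below every non-bloom one. Its log2 change was -0.35 (SE 0.17, adjusted p 0.156 in limma) and -0.17 without bloom 5, 6 and 9. UQCRFS1, the Rieske iron-sulphur protein, averaged 33.3 ± 9.00 in bloom and 38.7 ± 8.18 in non-bloom cortex (log2 change -0.24), with bloom 9 lowest at 13.7. UQCRC1 averaged 346 ± 54.0 in bloom and 360 ± 57.9 in non-bloom cortex (log2 change -0.055). The small accessory subunits had positive estimates. UQCRQ had 69.4, 101 and 325 in bloom and 45.9, 82.5 and 109 in non-bloom cortex (log2 change 0.52, SE 0.25, adjusted p 0.142 in limma), and UQCRB had a log2 change of 0.24. Leaving out bloom 5, 6 and 9 gave log2 changes of 0.19 for UQCRQ and 0.025 for UQCRB.

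The nuclear subunits of complex IV surround a catalytic core made in the mitochondria. All 10 of its widely expressed subunits had positive log2 changes, from 0.015 (COX5A) to 0.69 (COX8A), with a median of 0.35, and 0 passed. Without bloom 5, 6 and 9 the count was 8 of 10 and the median 0.13, and without non-bloom 7 as well 7 of 10 and 0.036. COX8A, a small membrane subunit, had lowest, median and highest values of 142, 235 and 1192 in the bloom group and 128, 188 and 248 in the non-bloom group. Bloom 9 (1192), 5 (554), 6 (457) and 7 (271) lay above the non-bloom range. The log2 change of COX8A was 0.69 (SE 0.33, adjusted p 0.140 in limma; 0.0306 in DESeq2), and 0.12 without bloom 5, 6 and 9. COX6C had 77.8, 107 and 177 in bloom and 54.5, 89.5 and 117 in non-bloom cortex; in limma the log2 change was 0.41 (SE 0.18) and the adjusted p 0.114, while the log2 change without bloom 5, 6 and 9 was 0.19.

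Of the other complex IV members 0 passed either. COX4I1, a subunit through which ATP is known to regulate the enzyme, averaged 586 ± 328 in bloom and 441 ± 93.4 in non-bloom cortex, with bloom 9 at 1406 and the other bloom libraries at 344 to 703. Its log2 change was 0.30, and -0.043 without bloom 5, 6 and 9. COX6A1 averaged 649 ± 236 in bloom and 478 ± 131 in non-bloom cortex (log2 change 0.41). COX6B1 averaged 310 ± 105 in bloom and 252 ± 60.4 in non-bloom cortex (log2 change 0.27). COX7A2 averaged 222 ± 48.1 in bloom and 186 ± 58.8 in non-bloom cortex (log2 change 0.29). The log2 changes without bloom 5, 6 and 9 were 0.14 for COX6A1, 0.017 for COX6B1 and 0.14 for COX7A2. COX4I2 averaged 2.78 ± 2.10 in bloom and 1.86 ± 0.82 in non-bloom cortex. COX7A2L, which helps join complexes III and IV, had a log2 change of -0.12 and COX7B2, a paralog of COX7B, one of -0.054.

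In complex V the alpha and beta subunits of the catalytic head had negative estimates. ATP5F1B, the beta subunit that makes ATP, had lowest, median and highest values of 513, 676 and 925 in the bloom group and 707, 910 and 1174 in the non-bloom group. Of the 9 bloom libraries 6 were below every non-bloom library, and only bloom 1, 4 and 6 reached the non-bloom range. The log2 change was -0.35 (SE 0.15, adjusted p 0.108 in limma) and -0.29 (adjusted p 0.204) without bloom 5, 6 and 9. DESeq2 and the library quality weights called it, with Benjamini-Hochberg adjusted p of 0.0436 and 0.0232. ATP5F1A, the alpha subunit, averaged 517 ± 94.3 in bloom and 601 ± 90.6 in non-bloom cortex, a log2 change of -0.22 both with and without bloom 5, 6 and 9; with quality weights its adjusted p was 0.0484. Of the other head and stalk subunits, ATP5C1 (gamma) had a negative estimate and ATP5F1D (delta) and ATP5E (epsilon) positive ones.

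Subunits e and f in the membrane part of ATP synthase gave the largest positive estimates of complex V. ATP5ME (e) had lowest, median and highest values of 86.4, 146 and 755 in the bloom group. In the non-bloom group they were 65.7, 105 and 166, with bloom 5, 6 and 9 above all non-bloom libraries. The log2 change of ATP5ME was 0.74 (SE 0.32, adjusted p 0.116 in limma; 0.0300 in DESeq2), and 0.23 without those 3 libraries. ATP5MF (f) averaged 315 ± 204 in bloom and 197 ± 53.9 in non-bloom cortex (log2 change 0.55, and 0.17 without bloom 5, 6 and 9). The c ring genes ATP5G1 and ATP5MC3 had log2 changes of 0.34 and -0.20 (-0.033 and -0.22 without bloom 5, 6 and 9), and the 3 peripheral stalk genes 0.053 to 0.44. ATP5S and ATP5SL match the naming rule but encode proteins that are not subunits of the enzyme; their log2 changes were 0.054 and 0.12. For ATP5SL the log2 change was 0.34 (adjusted p 0.172 in limma) without bloom 5, 6 and 9. ATPIF1, which inhibits ATP synthase and is not a member, averaged 357 ± 136 in bloom and 306 ± 84.8 in non-bloom cortex (log2 change 0.19, SE 0.21, adjusted p 0.516 in limma).

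Members with positive and with negative estimates differed in gene size. The median span of the gene locus in the deposited annotation was 4512 bases for the 51 members with a positive log2 change and 9307 bases for the 19 with a negative one. Across the 70 members, span and log2 change had a Spearman correlation of -0.58, against -0.19 across all 13548 genes tested. These genes share the same 17 libraries, so they are not independent points, and the part of span in the differences was not tested.

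Subunits encoded by the mitochondrial genome varied far more between libraries than their nuclear partners. All 12 tested had positive log2 changes (49.7% of all genes tested did), with a median of 1.05. Of the 12, 0 passed, against 9.16% of all genes. An unadjusted p under 0.05 in limma was found for 3, against 35.4% of all genes. Without bloom 5, 6 and 9 the split was 3 positive to 9 negative and 0 passed (2.47% of all genes did). With all 17 libraries, edgeR called 5 of the 12 as higher in bloom (median log2 change 2.78, against 8.29% of all genes called) and DESeq2 6 (against 23.4%). The library quality weights called 2 (median 0.38, against 29.8%). The 2 with the smallest p were MT-ND5 (log2 change 1.93, SE 0.80, adjusted p 0.0971 in limma) and MT-ND1 (log2 change 1.87, SE 0.81, adjusted p 0.113). For complex I, the sum of 7 mitochondrial transcripts was 0.50 to 77.1 times the sum of its nuclear transcripts in the bloom group and 2.70 to 5.49 times in the non-bloom group. These sums are not per length, so the ratio is set only between libraries. The nuclear sum of complex I includes NDUFA4 and NDUFA4L2. NDUFA4L2 gave 925 of 5133 in bloom 5 and 564 of 4722 in bloom 6. Bloom 8 had the lowest ratio and bloom 9 the highest in all 4 complexes, with 2.77 and 306 for complex IV against 28.0 to 59.7 in the non-bloom group. In bloom 8 the nuclear sum of complex I (3176) was within the non-bloom range of 2295 to 3785.

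**Figure D4:**
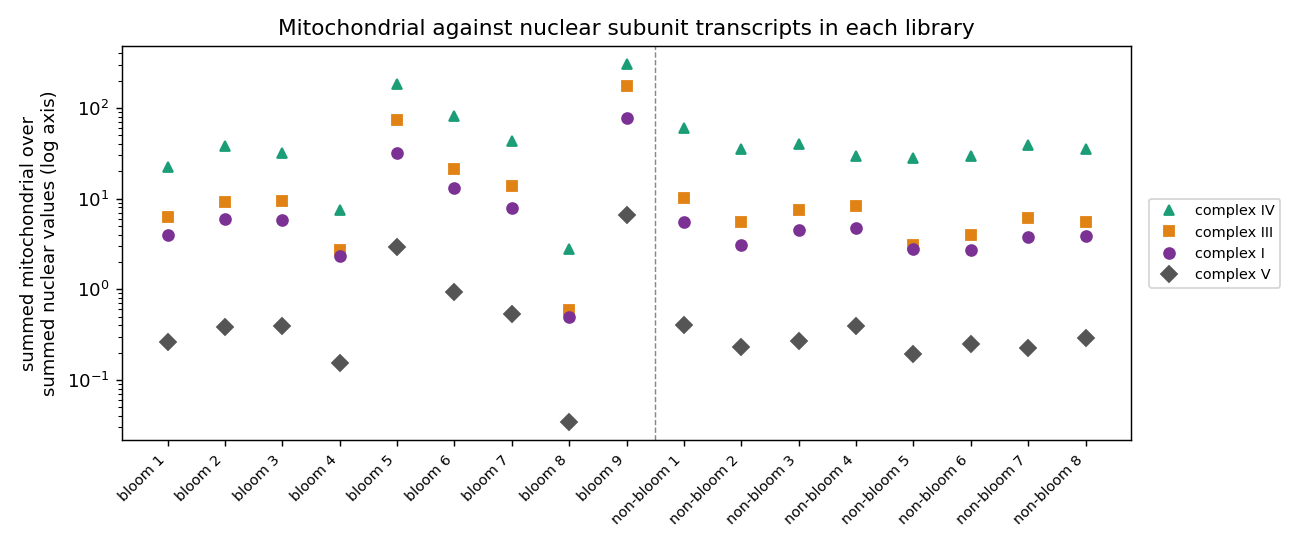
Summed normalised values of mitochondrially encoded transcripts divided by the sum of nuclear subunit transcripts of the same complex in each library (y axis, log scale), with bloom libraries left of the dashed line. The ratio of complex I spans 0.50 to 77.1 in the bloom group and 2.70 to 5.49 in the non-bloom group. Bloom 8 is lowest and bloom 9 highest in each of the 4 complexes. The nuclear sum of complex I includes NDUFA4 and NDUFA4L2.

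Assembly factors gave 1 call. LYRM7, a chaperone that delivers the Rieske protein to complex III, fell in bloom, to 2.71 ± 0.61 in the bloom group against 4.71 ± 0.84 in the non-bloom group (SD, n = 9 and 8), and 6 bloom libraries were below every non-bloom one. The log2 change was -0.63 (SE 0.14, adjusted p 0.0264 in limma), and -0.66 (adjusted p 0.0332) without bloom 5, 6 and 9. The call was lost without non-bloom 2, 6 or 8, with a highest adjusted p of 0.0604. LYRM7 was the only 1 of 27 tested assembly factors of complexes II to V to pass, against 9.16% of all genes tested. Of 14 assembly factors of complex I, 0 passed in limma, with TIMMDC1 (log2 change -0.42, adjusted p 0.0608) and NDUFAF3 (0.84, adjusted p 0.0780) closest. An unadjusted p under 0.05 in limma was found for 3 of the 14, against 35.4% of all genes tested.

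The enzymes that feed the chain leaned lower in bloom. Of 18 genes of the tricarboxylic acid cycle and pyruvate dehydrogenase, 13 had negative log2 changes and 4 fell: CS (citrate synthase), IDH3A, DLD and PDHA1. Over all genes tested, 9.16% passed and 49.7% had positive log2 changes. CS averaged 149 ± 33.1 in the bloom group and 210 ± 25.7 in the non-bloom group (log2 change -0.51, adjusted p 0.0366 in limma), and 6 bloom libraries were below every non-bloom one. IDH3A, a subunit of isocitrate dehydrogenase, had a log2 change of -0.63 (adjusted p 0.0380), DLD, a shared dehydrogenase subunit, one of -0.39 (adjusted p 0.0491) and PDHA1, of pyruvate dehydrogenase, one of -0.42 (adjusted p 0.0492), all in limma. Without bloom 5, 6 and 9 these 4 kept their sign and 0 passed, and leaving out single libraries of either group ended each of the 4 calls in 10 to 14 of 17 fits. Among 14 electron carriers and membrane transporters, VDAC1, the channel of the outer membrane, fell (217 ± 59.5 in bloom, 326 ± 32.0 in non-bloom; log2 change -0.63, adjusted p 0.0330 in limma). ETFA, an electron transfer flavoprotein, rose (median 46.9 in bloom and 28.1 in non-bloom cortex; log2 change 0.65, adjusted p 0.0451 in limma). Neither passed without bloom 5, 6 and 9, and 9 (VDAC1) and 11 (ETFA) of the 17 fits without 1 library lost the call. Of 14 regulators of mitochondrial biogenesis 0 passed. At an unadjusted p under 0.05 in limma there was 1, the coactivator PPARGC1A, against 35.4% of all genes tested. PPARGC1A averaged 17.5 ± 10.3 in bloom and 31.3 ± 13.2 in non-bloom cortex (log2 change -0.90, adjusted p 0.0612 in limma). ESRRG followed (-0.67, adjusted p 0.162 in limma). In the fit without bloom 5, 6 and 9, 1 of the 14 regulators passed, against 2.47% of all genes tested. It was NRF1, a transcription factor of many nuclear subunit genes, higher in bloom (log2 change 0.45, adjusted p 0.0414 in limma). Without non-bloom 7 as well 0 passed, against 1.77% of all genes. Over all libraries NRF1 had a log2 change of 0.10, with bloom 5, 6 and 9 below every non-bloom library and the other 6 bloom libraries above every non-bloom one.

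Markers of cell types also differed between the groups. Of 11 pan-neuronal markers 10 had negative log2 changes and 1, SYT1, fell (-1.52, adjusted p 0.0365 in limma). Of 8 interneuron markers, 5 fell: GAD1, GAD2, SLC32A1, KCNC2 and LHX6 (9.16% of all genes passed). Their log2 changes were -2.51 to -1.15, with adjusted p of 0.0238 to 0.0397 in limma. PVALB, ERBB4 and KCNC1, the rest of that list, did not pass. The count of interneuron markers that fell was 2 without bloom 5, 6 and 9, while without non-bloom 7 it was 1, and without all 4 libraries it was 0. The summed value of the 8 interneuron markers was 27.5 to 331 in the bloom group and 149.9 to 771 in the non-bloom group. Of 9 oligodendrocyte markers 2 rose (ERMN and MOG; summed value 4407 to 19137 in bloom and 1682 to 8018 in non-bloom), of 9 endothelial markers 1 (SLCO1A2), and of 6 blood markers 3 fell (S100A12, S100A9 and LYZ). Of 10 astrocyte markers 0 passed while all 10 were positive (summed 1387 to 9516 in bloom and 1803 to 3278 in non-bloom), with FGFR3 (log2 change 1.88) and SOX9 (1.59) at the smallest p. Of 6 tested microglia markers 0 passed (CD68 at -1.24 and P2RY12 at -0.90), and of 4 striated muscle markers 0 passed (DES at -0.23 and MYH7 at -0.36). The sum over 7 striated muscle markers was 578 in bloom 9 and 121 to 226 in the other bloom libraries. It was 106 to 274 in the non-bloom group. Of these 12 marker calls, S100A12 held in all 17 fits without 1 library, and the others were lost in 3 to 13 of them. With the mean neuronal marker level as a covariate in limma, 53 members had positive and 17 negative estimates with a median of 0.19, and 0 passed, against 0.0738% of all genes. At an unadjusted p under 0.05 that fit had 0 members, against 11.5% of all genes (6.4% higher and 5.06% lower). The part of cell composition in the subunit values was not tested beyond that fit.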

How the data were processed

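RNA from frozen cerebral cortex of 17 dolphins was made into messenger RNA libraries, per the labels' protocols. Trim Galore 0.6.1 and STAR 2.5.2a are named in the submitters' processing notes; the sources used here do not give the counting tool, genome build, annotation or strand setting. The authors deposited 1 normalised signal value per gene and library. Dividing by the size of 1 read gave whole reads for every value above 0 (100% within 0.01), and the deposited values matched CPM with library sizes scaled by trimmed mean of M values (TMM), recomputed here. A value of 3 reads, the floor for counting error, was 0.158 to 1.71. No pair of libraries agreed within sampling noise (lowest chi-square 17.0 per gene).

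Season came from the treatment label. Genes were kept by edgeR's filterByExpr (minimum count 10, minimum total 15), leaving 13548. The test was limma-trend with season alone in the model, on log2(value + 1), and a Benjamini-Hochberg adjusted p under 0.05 over all genes tested counted as passing. Paralog ratios were tested by two-sided exact permutation over 24310 splits. The plan provided for this test if the values were normalised. The members, lists and tests were chosen with earlier results of these data known. Values were given for the 2 members per direction with the smallest p in each complex, core subunits, paralog pairs, ATPIF1 and any member called by another fit; of other lists, for genes that passed or the 2 with the smallest p. NDUFA5, NDUFS7 and other subunit genes that the rule did not find were not analysed here. Values of 1 member that the rule names are not reported here; it stays in every fit and count. Gene lengths of transcripts were not used, so levels are not compared between genes.

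Alternatives were edgeR and DESeq2 on the recovered reads, quality weights, other scalings, no filter, a pseudocount of 0.1, the neuronal covariate and leaving out libraries. The fit without bloom 5, 6 and 9 in edgeR and that without non-bloom 7 as well were added after seeing the data. On simulated data with the same group sizes (13548 genes, 200 changed), limma found 62% of the changes of 1 on the log2 scale and 95% of those of 2. Of its 160 calls 3 were false. The simulation drew each gene independently and held no shifts shared by many genes of a library, such as those of bloom 5, 6 and 9. These rates therefore need not hold for the real libraries. limma 3.58.1, edgeR 4.0.16 and DESeq2 1.42.0 were run in R 4.3.3.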

Additional observations from a re-analysis of the deposited data

Results flagged for a closer look

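Over the values of each group, 16 of 78 checks found a library whose gap to its nearest neighbour was large for the group's whole range (Dixon's criterion). The criterion flags about 1 in 20 by chance where checks are independent. These checks share the same libraries, and many of the genes were named for a small p. The count therefore cannot be set against that rate. Of the 16 flags, 12 were bloom 9. Bloom 9 was high among bloom libraries in ATP5ME (755), ATP5MF (829.8), ATPIF1 (678), COX4I1 (1406), COX7B2 (31.4), COX8A (1192), NDUFA3 (435), NDUFB11 (146), NDUFS8 (612), NDUFV1 (525) and UQCRQ (325), and low in UQCRFS1 (13.7), all as normalised values. Bloom 6 was high in SDHA (733) and SDHD (76.0). Non-bloom 7 was high in NDUFA4L2 (176) and in the log2 ratio of COX4I2 to COX4I1 (-5.99).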

How the results depend on the processing

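The count of members that passed was 0 in limma over all libraries and 0 with no filter, a pseudocount of 0.1, the neuronal covariate, without bloom 5, 6 and 9 (limma and edgeR) and without these and non-bloom 7. It was 1 with edgeR (NDUFA3), 9 with DESeq2, 5 with library quality weights, and 1 (NDUFS1) with relative log expression scaling and with scaling without mitochondrial transcripts; leaving out each library in turn gave 0 to 1. The count over all genes, 1241, was 3170 with DESeq2, 4032 with quality weights, 560 with no filter, 10 with the neuronal covariate, 334 without bloom 5, 6 and 9 (236 in edgeR) and 240 without non-bloom 7 as well. edgeR over all libraries gave 1123 (826 higher, 297 lower). Leaving out single libraries gave 61 (without non-bloom 2) to 2897 (without bloom 1). The log2 ratio of NDUFA4L2 to NDUFA4 ran from 1.25 to 2.08 over those fits, past the threshold only without non-bloom 7, and that of COX4I2 to COX4I1 from -0.17 to 0.22. Over 37 named genes and 28 alternatives (1036 values), none of which passed over all libraries, 20 values newly passed, and 32 changed sign without passing in either fit. The causes were not tested. No paired analysis was possible because the labels give no replicate numbers that the groups share. Depth limits bloom 9 most, where 1 read was worth 0.571; low members such as COX4I2 rest on few reads there.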
